A study of Mus musculus with 11 samples.

Results

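Potassium channel genes were examined in mouse colon before and after imatinib. They were taken as all genes whose single symbol in the platform annotation begins with Kcn, which gave 84 of the 18193 named genes on the array. Genes were selected on their symbols, and a gene with several probe sets was represented by the one chosen by the highest mean signal over the 11 arrays. Signal levels are therefore given as a description without a test. Of the 84 genes 81 encode proteins, pore-forming or auxiliary, and 3 are noncoding RNAs that share the prefix (Kcnq1ot1, Kcnmb4os1 and Kcnmb4os2).

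The samples were adult colon of C57BL/6 mice, for which the labels name no allele and no agent other than imatinib, a tyrosine kinase inhibitor whose targets include Abl, Kit and the PDGF receptors. Control colon, taken before imatinib, gave 3 arrays, and colon at 3 h and at 12 h after an imatinib injection gave 4 arrays each. Vehicle-injected mice and controls of matched hour were not analysed here, so drug, injection and hour of harvest cannot be told apart. The labels do not say that each sample was a separate mouse, and p-values therefore measure the spread between these samples, which may be technical.

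Potassium channels let potassium leave cells down its gradient and so set the membrane voltage. In colon epithelium, basolateral channels built from Kcnq1 with its partner Kcne3, and from the calcium-activated Kcnn4, keep up the driving force for chloride secretion, while apical large-conductance channels built from Kcnma1 secrete potassium into the lumen. In smooth muscle, interstitial cells and enteric neurons other members hold the resting voltage or shorten electrical events. ATP-sensitive channels of vascular muscle, built from Kcnj8 and the sulphonylurea receptor Abcc9, relax vessels when they open.

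Array medians ran from 16.7 to 23.8 signal units. Transcripts of pancreatic acinar cells were high on 5 arrays (control replicate 1, 3 h replicate 3 and 12 h replicates 1, 3 and 4), where 7 measured markers summed to 18154.9 or more, against 1387.0 or less on the other 6. The summed signal of 4 measured fat markers (Adipoq, Fabp4, Cidec and Lep) lay between 650.8 and 852.7 in control, 1380.6 and 2084.9 at 3 h and 950.8 and 1991.0 at 12 h. The 4 Hox genes of distal colon (Hoxd10, Hoxd13, Hoxa13 and Hoxb13) summed to between 1412.2 and 1931.2 in control, 617.7 and 1029.9 at 3 h and 1428.9 and 1641.4 at 12 h. All 4 of these Hox genes fell at 3 h against control. The summed signal of 6 smooth muscle markers lay between 18612.4 and 22582.9 in control, 18446.1 and 26424.7 at 3 h and 12821.5 and 20030.4 at 12 h. The 6 epithelial markers summed to between 19848.6 and 24201.6 over all arrays, and 1 of them, the intestinal transcription factor gene Cdx2, rose at 3 h (log2 change 0.75 ± 0.10, SE; limma adjusted p = 0.00243). The part of these cell types in the results below was not tested unless a value is given. Poly-A control RNA had a median signal between 67.7 and 90.7 in control, 75.5 and 95.9 at 3 h and 98.0 and 174.2 at 12 h.

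Upstream sequence is shown for Kcne4 and Kcnj8 because they are the 2 genes that rose at 3 h. The 250 bases before the annotated start are from RefSeq (GRCm38.p6), 5′ to 3′ on the gene's strand, at chr1:78816661-78816910 on the plus strand for Kcne4 and chr6:142571615-142571864 on the minus strand for Kcnj8. Capitals mark matches to the motifs searched on both strands.
Kcne4: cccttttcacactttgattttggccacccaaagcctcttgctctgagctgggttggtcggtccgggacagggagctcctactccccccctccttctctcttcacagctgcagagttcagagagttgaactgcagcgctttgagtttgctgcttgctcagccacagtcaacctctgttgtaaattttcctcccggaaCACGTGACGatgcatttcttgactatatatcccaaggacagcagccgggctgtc
Kcnj8: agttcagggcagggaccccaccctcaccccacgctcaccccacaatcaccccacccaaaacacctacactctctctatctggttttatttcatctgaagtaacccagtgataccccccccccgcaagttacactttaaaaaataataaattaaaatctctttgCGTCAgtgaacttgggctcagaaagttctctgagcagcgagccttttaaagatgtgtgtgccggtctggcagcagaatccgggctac

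The motifs searched were the cAMP response element TGACGTCA and its half-site TGACG, the glucocorticoid receptor half-site AGAACA, the E-box CACGTG, the D-box TTANGTAA and the TATA box TATAAA. The Kcne4 window held an E-box from position -54 and a half-site TGACG from position -50, counted back from -1 at the last base before the start, and these share bases. The Kcnj8 window held the half-site on the opposite strand (CGTCA as printed), from position -87. Among 32851 annotated starts the same length of upstream sequence held TGACG in 17.8% and CACGTG in 6.02%. The full element TGACGTCA (1.55% of starts), AGAACA (16.1%), TTANGTAA (2.06%) and TATAAA (12.4%) had no match in either window. A match of this kind describes letters only.

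Background on each array was set at the 95th percentile of 39 olfactory receptor genes, which gave 12.6 to 21.6. By this measure 26 of the 84 genes were above background on every array of at least 1 group, or 31.0%, against 66.5% of all genes. There were 23 such genes in control, 22 at 3 h and 19 at 12 h, and 17 were above background in all 3 groups. Of all genes 63.9% were above background in control, 61.8% at 3 h and 62.5% at 12 h. A gene had to pass on 3 arrays in control and on 4 in each other group, so these counts do not measure a change. Of the other 58 genes, 31 passed the level on some arrays and 27 on none. A signal depends on the probes as well as on the RNA, so levels are not compared between genes, and a gene below background is not shown to be absent.

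**Figure D1:**
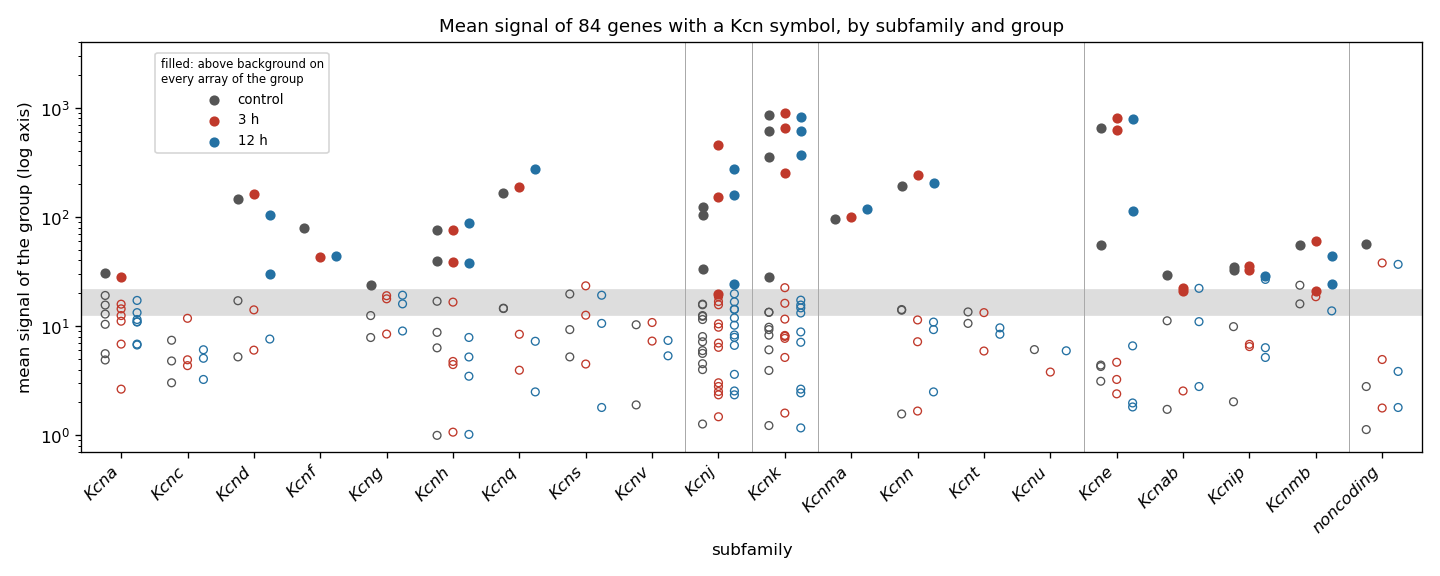
Mean signal of each of the 84 genes (log axis) by subfamily, for control, 3 h and 12 h after imatinib. Filled points were above background on every array of the group, open points were not, and the grey band spans the background levels of the arrays, 12.6 to 21.6. Filled points make up 26 genes, and Kcnc, Kcns, Kcnt, Kcnu and Kcnv have none.

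Of 31 voltage-gated pore genes 8 were above background in a group. They were the epithelial Kcnq1, the transient-current genes Kcnd3 and Kcnd1, the neuronal delayed rectifier Kcna1, Kcnh2 and Kcnh3 of the ether-a-go-go family, and the electrically silent subunits Kcnf1 and Kcng4. Kcnd1 passed only at 12 h, Kcng4 only in control, and Kcna1 only in control and at 3 h. Kcnd1 was also above background on 2 control arrays and 1 array at 3 h. Kcng4 was so on 2 arrays at 3 h and 3 at 12 h, and Kcna1 on 3 at 12 h. None of these genes passed the limma test in any comparison. None of the 3 Kcnc, 3 Kcns or 2 Kcnv genes passed. The chosen probe set of Kcnh3 is of a class that can bind other transcripts, although 2 of its other 3 probe sets also stood above background on all 11 arrays.

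Of 15 inward rectifier genes 3 were above background, and each of them was so on all 11 arrays. They were both pore genes of ATP-sensitive channels, Kcnj8 and Kcnj11, and the glial and epithelial Kcnj10. Kcnj2, Kcnj15 and Kcnj16 were above background on no array, and Kcnj13 was on 7 without passing in a whole group. Of 12 tandem-pore genes, whose products carry leak currents, Kcnk1, Kcnk5 and Kcnk6 were above background on all 11 arrays and Kcnk3 in control only. Kcnk3 was also above it on 3 arrays at 3 h and 2 at 12 h, and did not pass the limma test in any comparison. The stretch-activated Kcnk2 was above background in no group. Among 8 calcium- or sodium-activated pore genes, the large-conductance Kcnma1 and the intermediate-conductance Kcnn4 were above background on all arrays. The small-conductance genes Kcnn2 and Kcnn3 were not, with highest signals of 16.3 and 3.3.

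Of 15 auxiliary subunit genes 8 were above background in a group. These were Kcne3 and Kcne4, which attach to voltage-gated pores, the beta subunits Kcnab1 and Kcnab2, the calcium sensors Kcnip1 and Kcnip4 that bind Kcnd pores, and Kcnmb1 and Kcnmb4 of large-conductance channels. Kcne1 was above background on no array and Kcne2 on 1. Kcnab1 passed at 3 h only, with signals of 16.8, 27.1, 24.7 and 15.3 at 3 h and of 7.4 to 16.3 in control. These overlapped and the difference did not pass the test (limma adjusted p = 0.375). Of the noncoding RNAs only Kcnq1ot1, the antisense transcript of the imprinted Kcnq1 domain, was above background in a group, in control.

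The first comparison asked which of these genes differed 3 h after imatinib. Kcne4 and Kcnj8 rose. Kcnq3 was lower at signals near background, and the other 81 genes did not pass. Kcne4 averaged 619 ± 144 (SD, n = 4) at 3 h and 55.3 ± 13.1 (SD, n = 3) in control, and Kcnj8 458 ± 97.9 (SD, n = 4) at 3 h and 104 ± 17.9 (SD, n = 3) in control. With 3 of 84 genes past the limma test (adjusted p under 0.05 over all 18193 genes), the share of 3.57% stands beside 2.54% of all genes. The 2 that rose were 2.38% of the 84, against 1.43% of all genes, and the 1 that fell was 1.19%, against 1.11%. Groups did not overlap for 10 of the 84, or 11.9%, against 15.3% of all genes. The median log2 change of the 84 was -0.01, against -0.02 over all genes, and 82 of them changed by less than 1 on the log2 scale. The share of potassium channel genes that passed was therefore near that of the array as a whole, and both rises lay in single genes of different subfamilies.

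Kcne4 encodes a single-span auxiliary subunit that, in expression systems with human channels, suppresses currents of KCNQ1. Its signals were 69.6, 52.2 and 44.0 on the control arrays, 530.6, 808.8, 648.7 and 487.1 at 3 h, and 127.1, 104.4, 137.2 and 84.6 at 12 h. No array of one group overlapped with another group, with 3 h highest, 12 h between and control lowest. The log2 change at 3 h against control was 3.14 ± 0.20 (SE; limma adjusted p = 8.1e-06), and it passed when any 1 of the 11 arrays was left out. Without the 5 arrays high in pancreatic transcripts it was 3.25 ± 0.22 (SE; limma adjusted p = 0.00693). A single probe set represents Kcne4, and the same holds for Kcnj8 and Kcnq1. Fat markers were also higher on the 3 h arrays than on the control arrays, and their part in this result was not tested.

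Kcnj8 encodes the pore of the ATP-sensitive channel of vascular smooth muscle and pericytes. Its signals were 85.6, 105.8 and 121.4 in control, 424.7, 581.4, 477.0 and 348.2 at 3 h, and 281.3, 333.5, 384.9 and 88.3 at 12 h. All 3 h arrays lay above all control arrays, while at 12 h 3 arrays were high and replicate 4 lay among the controls. The log2 change at 3 h was 1.97 ± 0.37 (SE; limma adjusted p = 0.018), and without the 5 arrays high in pancreatic transcripts it was 1.82 ± 0.21 (SE; limma adjusted p = 0.0296). The call was lost when control replicate 1 or 2 or 3 h replicate 2 or 3 was left out, with adjusted p between 0.0523 and 0.0885 and log2 changes between 1.85 and 1.98. It was also lost with an offset of 1 (log2 change 2.11; limma adjusted p = 0.0555). Without 12 h replicate 4, which enters this comparison only through the pooled spread, the log2 change was 1.97 ± 0.18 (SE; limma adjusted p = 0.00017). Fitted on the control and 3 h arrays alone it was 1.97 ± 0.18 (SE; limma adjusted p = 0.000922).

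Its partner Abcc9 had signals of 211.6, 261.8 and 215.5 in control, 257.5, 317.3, 238.0 and 257.4 at 3 h and 286.7, 336.6, 338.0 and 223.9 at 12 h. These overlapped between the groups, with a log2 change at 3 h of 0.21 ± 0.15 (SE; limma adjusted p = 0.6). None of 4 pericyte markers (Rgs5, Notch3, Pdgfrb and Cspg4) and none of 4 endothelial markers (Pecam1, Cdh5, Kdr and Tek) passed at 3 h, with median log2 changes of 0.00 in both lists. The pericyte markers were split, with log2 changes of 0.28 for Rgs5 and 0.15 for Cspg4, against -0.46 for Pdgfrb and -0.15 for Notch3. They summed to between 2358.4 and 3021.7 at 3 h and 1881.3 and 2841.0 in control, and Rgs5 made up most of each sum. In bulk tissue a change in the number of cells of a type and a change in RNA per cell cannot be told apart.

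Kcnq3, a pore gene of the neuronal M-current, was the 1 gene called lower at 3 h (limma adjusted p = 0.0225) and again at 12 h (0.0164). Its signals were 20.1, 13.6 and 9.7 in control, 2.0, 5.2, 5.0 and 3.6 at 3 h and 2.0, 2.0, 2.4 and 3.6 at 12 h. Only control replicate 1 exceeded the background of its array, so no fold is given. Its other probe set gave log2 changes of -0.05 at 3 h and 0.07 at 12 h, with adjusted p = 0.958 and 0.916 in a limma fit over all probe sets. Without the 5 arrays high in pancreatic transcripts neither call held (limma adjusted p = 0.222 and 0.405), nor did either with the mean of all probe sets (0.099 and 0.115). Both were lost without control replicate 1 or 2 (adjusted p between 0.0691 and 0.0971), and that at 3 h also without 3 h replicate 1 or 4 (0.0631 and 0.0569).

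**Figure D2:**
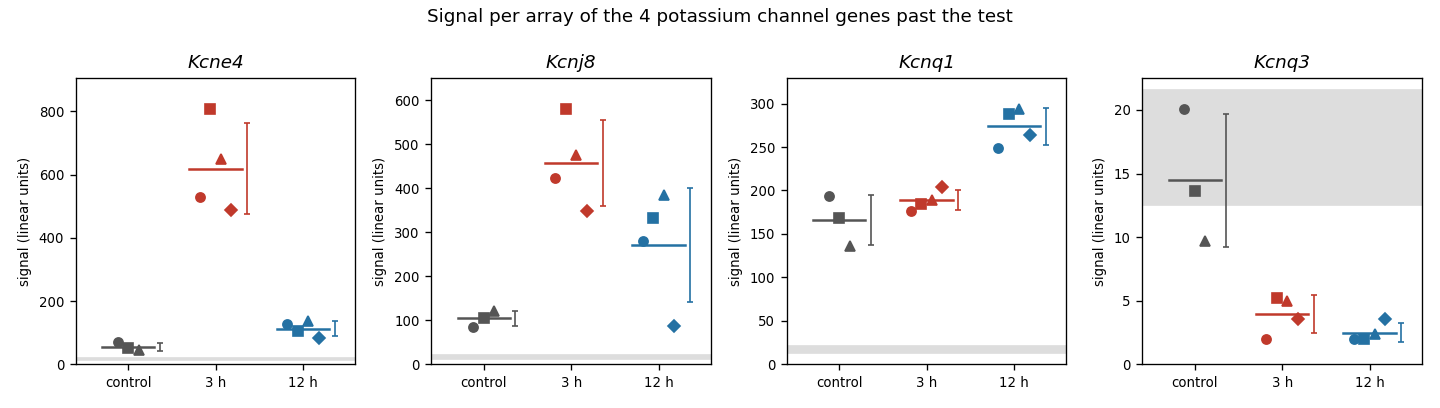
Signal on each array (linear units) of Kcne4, Kcnj8, Kcnq1 and Kcnq3 in control (n = 3), 3 h (n = 4) and 12 h (n = 4). Lines are group means, bars are SD, marker shapes are replicate numbers, and the grey band spans the background levels. Kcne4 separates all 3 groups, 12 h replicate 4 of Kcnj8 lies among the controls, and Kcnq3 lies in or below the band.

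Kcnk5, Kcnj10, Kcnj11 and Kcnk6, all above background, had groups that did not overlap at 3 h without passing the test. For Kcnk6 the log2 change was only 0.07. Kcnk5, an acid-inhibited leak channel of epithelia, had signals of 249.9, 260.9, 240.8 and 261.0 at 3 h, against 361.5, 397.8 and 301.1 in control. Its log2 change was -0.45 ± 0.15 (SE; limma adjusted p = 0.166). The other Kcnk5 probe set, also above background on all 11 arrays, gave -0.17 (adjusted p = 0.707 in the limma fit over all probe sets), and its groups overlapped. Kcnj10 had signals of 20.6, 19.0, 21.6 and 17.4 at 3 h, against 41.9, 30.4 and 27.6 in control (log2 change -0.46 ± 0.11, SE; limma adjusted p = 0.0567). The 3 h signals were close to background, and without control replicate 3 both Kcnj10 and Kcnf1 passed. Kcnj11 had signals of 158.0, 146.4, 170.5 and 133.9 at 3 h, against 109.3, 130.3 and 132.8 in control. Its log2 change was 0.26 ± 0.11 (SE; limma adjusted p = 0.272). Kcnf1, a silent subunit, averaged 43.4 ± 12.6 (SD, n = 4) at 3 h and 78.4 ± 26.4 (SD, n = 3) in control, but its groups overlapped. Both probe sets of Kcnf1 had similar log2 changes at 3 h, -0.65 and -0.67 (limma adjusted p = 0.192 and 0.274 in the fit over all probe sets).

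The basolateral and apical channels of the colonocyte did not pass at 3 h. The log2 change was 0.18 ± 0.12 (SE; limma adjusted p = 0.551) for Kcnq1, 0.30 ± 0.13 (SE; 0.283) for Kcne3, 0.27 ± 0.18 (SE; 0.555) for Kcnn4 and 0.05 ± 0.14 (SE; 0.925) for Kcnma1. Kcne3 signals were 893.7, 705.3, 741.5 and 880.1 at 3 h, against 562.8, 659.5 and 727.1 in control, so 1 control array lay within the 3 h range. For the tandem-pore genes Kcnk1 and Kcnk6 it was 0.05 ± 0.11 (SE; limma adjusted p = 0.898) and 0.07 ± 0.09 (SE; 0.813). For genes of the muscle layer the log2 changes were 0.13 ± 0.17 (SE; limma adjusted p = 0.816) for Kcnd3, -0.03 ± 0.13 (SE; 0.959) for Kcnh2 and 0.11 ± 0.17 (SE; 0.834) for Kcnmb1.

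**Figure D3:**
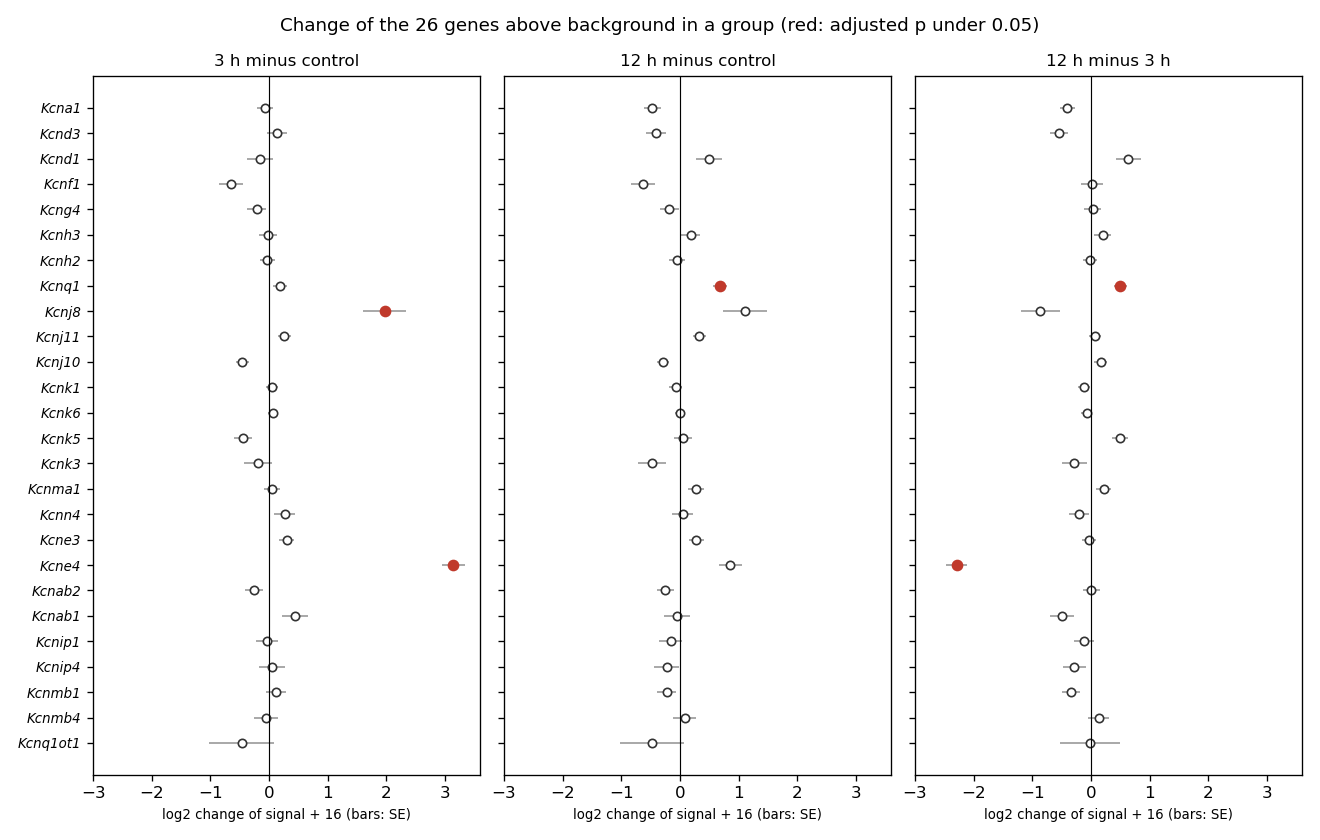
Log2 change of signal + 16 (points, with SE bars) of the 26 genes above background in a group, for 3 h minus control, 12 h minus control and 12 h minus 3 h. Red points had an adjusted p under 0.05. Kcne4 and Kcnj8 stand apart at 3 h, with log2 changes of 3.14 and 1.97, and Kcnq1 is red in both 12 h panels.

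The comparison of 12 h with control asked which genes differed later. Kcnq1 rose, Kcnq3 was lower near background as given above, and Kcne4 did not pass, although its arrays did not overlap with control. With 2 of 84 genes past the limma test the share was 2.38%, against 1.62% of all genes. The 1 that rose was 1.19% of the 84, against 0.781% of all genes, and the 1 that fell was 1.19%, against 0.835%. With array medians made equal, or with quantile normalization, 2 rose (Kcne4 being the added gene) and 1 fell. Kcne4 also passed with a filter on low values (limma adjusted p = 0.023), with the mean of all probe sets (0.0458) and with a trended and robust variance prior (0.0182). Groups did not overlap for 13 of the 84, or 15.5%, against 13.0% of all genes, and 9 of these 13 genes were above background in no group. The median log2 change was -0.03, against -0.01 over all genes.

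Kcnq1 encodes the pore of the cAMP-activated basolateral potassium channel of crypt cells. Its signals were 193.6, 168.5 and 136.4 in control, 176.7, 184.6, 188.8 and 204.0 at 3 h and 248.6, 288.1, 294.1 and 263.9 at 12 h. All 12 h arrays lay above all control and 3 h arrays. The mean was 274 ± 21.2 (SD, n = 4) at 12 h and 166 ± 28.7 (SD, n = 3) in control. The 2 differed by 0.68 ± 0.12 on the log2 scale (SE; limma adjusted p = 0.0185). The call was lost without control replicate 2, 12 h replicate 2 or 12 h replicate 3, with adjusted p between 0.051 and 0.0769. It was also lost with an offset of 1 (log2 change 0.73; limma adjusted p = 0.0523). Fitted on the control and 12 h arrays alone it did not pass either (limma adjusted p = 0.0862). Without the 5 arrays high in pancreatic transcripts, which leaves a single 12 h array assumed to vary like the others, the log2 change was 0.86 ± 0.18 (SE; limma adjusted p = 0.301). The antisense Kcnq1ot1 varied between arrays, with signals from 5.9 to 71.4 at 12 h and from 26.4 to 104.8 in control, and did not pass (log2 change -0.48 ± 0.55, SE; limma adjusted p = 0.75).

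The epithelial partner of Kcnq1, Kcne3, averaged 789 ± 81.9 (SD, n = 4) at 12 h and 650 ± 82.6 (SD, n = 3) in control, with 1 control array inside the 12 h range. Its log2 change was 0.28 ± 0.13 (SE; limma adjusted p = 0.324). Kcne4 at 12 h had arrays that all lay above control (log2 change 0.86 ± 0.20, SE; limma adjusted p = 0.0514). Left out singly, 2 of the 11 arrays brought it past the threshold, 12 h replicate 4 (adjusted p = 0.0289) and 3 h replicate 2 (0.0448).

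Kcnj8 at 12 h did not pass (log2 change 1.11 ± 0.37, SE; limma adjusted p = 0.167). Of the 11 arrays left out singly, only 1 brought it past the threshold, 12 h replicate 4. Without this array, the lowest of its group, the log2 change was 1.54 and the limma adjusted p 0.00214. The check for single outlying arrays given further below did not flag that array. That array was also among those high in pancreatic transcripts. On it Abcc9 had the lowest signal of the 12 h group, 223.9, and the 4 endothelial markers summed to 86.2, the lowest of the 11 arrays. Those endothelial markers were dim, and Pecam1 (11.9) was below the background of this array (12.8). Pericyte markers on the same array summed to 2839.6, the highest of the 12 h group, but Rgs5 alone gave 2706.8 of this. Pdgfrb (57.9) and Notch3 (23.7) had their lowest signals of the 11 arrays there, and Cspg4 was 51.2. The 6 smooth muscle markers summed to 20030.4 on this array and the 4 measured fat markers to 1991.0, both the highest of the 12 h group. The part of these cell types in the Kcnj8 signal was not tested.

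Other genes above background did not pass at 12 h. The neuronal Kcna1 had signals of 15.5, 19.0, 17.6 and 16.6 at 12 h, against 32.7, 37.4 and 21.1 in control, with no overlap (log2 change -0.47 ± 0.14, SE; limma adjusted p = 0.12). Its other 3 probe sets gave log2 changes of -0.39, -0.23 and 0.10, and without control replicate 3 Kcna1 passed. Kcnj11 had signals of 161.3, 175.5, 159.3 and 145.5 at 12 h, all above control, and differed by 0.33 ± 0.11 on the log2 scale (SE; limma adjusted p = 0.158). Its other probe set, above background on 1 of 11 arrays, gave -0.24 at 3 h and -0.36 at 12 h (adjusted p = 0.699 and 0.462 in the limma fit over all probe sets). Kcnd3, a transient-current gene of colonic muscle and interstitial cells, had signals of 98.3, 96.5, 96.8 and 130.0 at 12 h, against 158.8, 160.7 and 117.9 in control. Its groups overlapped by 1 array (log2 change -0.41 ± 0.17, SE; limma adjusted p = 0.253). Smooth muscle markers moved with it, the 6 having a median log2 change of -0.52 at 12 h with none past the test. The 3 measured markers of interstitial cells of Cajal summed to between 1485.7 and 1812.5 at 12 h and 2203.3 and 3285.7 in control, with none past the test. Their log2 changes were -1.38 for Ano1, -0.22 for Kit and -0.09 for Thbs4. Only Ano1, which is also counted among the epithelial channels below, had groups that did not overlap. The part of smooth muscle and interstitial cells in the Kcnd3 values was not tested.

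The third comparison set 12 h against 3 h. Kcne4 fell and Kcnq1 rose. With 2 of 84 genes past the limma test the share was 2.38%, against 4.08% of all genes. The 1 that rose was 1.19%, against 1.99% of all genes, and the 1 that fell was 1.19%, against 2.09%. Of the 84 genes 7, or 8.33%, had groups that did not overlap, against 11.5% of all genes. Kcne4 averaged 113 ± 23.6 (SD, n = 4) at 12 h and 619 ± 144 (SD, n = 4) at 3 h. The difference was -2.29 ± 0.18 on the log2 scale (SE; limma adjusted p = 2.79e-05). Without the 5 arrays high in pancreatic transcripts, with 1 array left at 12 h, it was -2.34 ± 0.28 (SE; limma adjusted p = 0.0573). Kcnq1 differed by 0.50 ± 0.11 on the log2 scale (SE; limma adjusted p = 0.0252), a call lost without 3 h replicate 1, 2 or 3 or 12 h replicate 2 or 3 (adjusted p between 0.0625 and 0.0763) and without the 5 arrays (0.316).

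Kcnk5 and Kcnd3 came next among the genes above background. Kcnk5 had signals of 274.9, 398.5, 354.2 and 457.9 at 12 h, against 249.9, 260.9, 240.8 and 261.0 at 3 h, with no overlap (0.50 ± 0.14 on the log2 scale, SE; limma adjusted p = 0.0725). Its other probe set gave 0.41. Kcnk5 passed without 12 h replicate 1. Kcnd3 had signals of 98.3, 96.5, 96.8 and 130.0 at 12 h, against 125.0, 211.2, 154.4 and 156.3 at 3 h, and 1 array of each group crossed (log2 change -0.54 ± 0.15, SE; limma adjusted p = 0.079). The smooth muscle markers had a median log2 change of -0.64 in this comparison and 2 of 6 fell (Actg2 and Des), with values of -0.76 and -0.88. Kcnj8 did not pass, at -0.86 ± 0.34 (SE; limma adjusted p = 0.21). Without 12 h replicate 4 it was -0.43 ± 0.18 (SE; limma adjusted p = 0.222), and without the 5 arrays high in pancreatic transcripts -0.39 ± 0.27 (SE; 0.666). The Hox genes of distal colon were all higher at 12 h than at 3 h, with a median log2 change of 0.84, and the part of the region sampled in these values was not tested.

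Genes that work beside potassium channels were taken from a list of 35, of which 31 were measured. The list was chosen with earlier results of these data known, so its counts do not test whether such genes changed more often than others. None of 8 measured channel subunits without a Kcn name (Abcc8, Abcc9, Dpp6, Dpp10, Lrrc26, Lrrc38, Lrrc52 and Amigo1) passed in any comparison. Lrrc26, the gamma subunit of large-conductance channels in secretory epithelium, differed by 0.33 ± 0.11 on the log2 scale (SE; limma adjusted p = 0.146) at 12 h against 3 h. Of 23 measured pumps, cotransporters and epithelial channels, 2 rose and 1 fell at 3 h, 1 rose and 1 fell at 12 h, and 1 rose and 2 fell at 12 h against 3 h. Of all genes 2.54%, 1.62% and 4.08% passed in these comparisons, counting both directions together. The median log2 change of the 23 was -0.07 at 3 h, 0.02 at 12 h and 0.01 at 12 h against 3 h, beside -0.02, -0.01 and 0.01 over all genes.

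The colonic proton and potassium pump gene Atp12a, whose product takes potassium up from the lumen, had signals of 1853.4, 1835.8 and 2114.3 in control, 523.3, 428.7, 397.8 and 472.0 at 3 h and 2855.5, 2964.2, 1669.3 and 3699.1 at 12 h. The 3 h arrays lay below all others. It fell by 2.05 ± 0.21 on the log2 scale (SE; limma adjusted p = 0.000401) at 3 h against control and rose by 2.53 ± 0.20 (SE; 2.73e-05) at 12 h against 3 h. The distal Hox genes were low on the same 3 h arrays, and their part was not tested.

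Nedd4l, a ubiquitin ligase that removes epithelial sodium channels, rose at 3 h, with signals of 757.7, 931.3, 828.7 and 734.6 at 3 h against 427.2, 480.6 and 553.1 in control. The log2 change was 0.72 ± 0.14 (SE; limma adjusted p = 0.0181), and at 12 h against 3 h it was -0.70 ± 0.13 (SE; 0.0099). Scnn1g, the gamma subunit of the sodium channel whose current drives potassium secretion, had signals of 49.2, 41.9, 43.8 and 65.6 at 3 h and 54.8, 67.8, 86.2 and 30.6 at 12 h, against 8.0, 12.3 and 7.8 in control. It rose at both times (limma adjusted p = 0.00776 and 0.00732), and no fold is given because the control signals were below background. Fxyd2, a modulator of the sodium pump, fell at 12 h, with signals of 6.7, 6.7, 5.6 and 7.9 at 12 h against 18.5, 20.9 and 21.0 in control (limma adjusted p = 0.00564). At 3 h its signals were 15.5, 13.1, 18.0 and 13.7 (12 h against 3 h, limma adjusted p = 0.0123), and again no fold is given because the 12 h signals were below background.

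**Figure D4:**
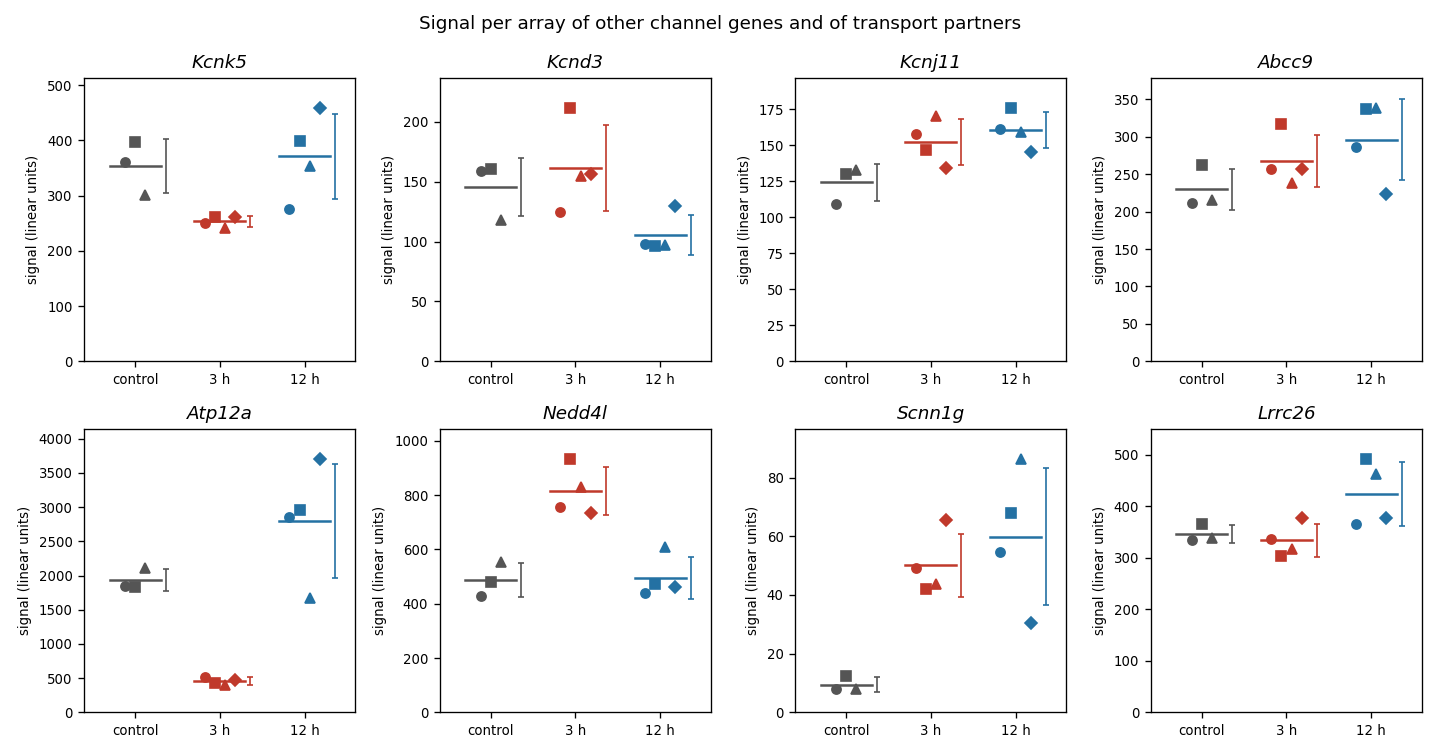
Signal on each array (linear units) of the channel genes Kcnk5, Kcnd3 and Kcnj11 and of the partners Abcc9, Atp12a, Nedd4l, Scnn1g and Lrrc26 in control (n = 3), 3 h (n = 4) and 12 h (n = 4). Lines are group means, bars are SD and marker shapes are replicate numbers. Atp12a is lowest at 3 h with signals of 523.3 or less, and Abcc9 overlaps between all groups.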

How the data were processed

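Total RNA of mouse colon was labelled with biotin and hybridised to expression arrays, per the labels' protocols. The deposited values are linear intensities, 1 signal for each of 45101 probe sets. How signals were summarised, and with what software, is not given in the sources used here. After trimming 2% at each end the mean was 100.0 on every array, as a single scaling factor per array would give. No 2 of the 55 array pairs were identical.

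Of 45037 probe sets other than controls, 34945 had 1 symbol in the platform annotation, 932 several and 9160 none, and the last 2 kinds were left out. Symbols were updated by Entrez number to RefSeq (GRCm38.p6), which changed 0 member symbols. The 84 genes have 167 probe sets, and 46 have more than 1.

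Signals were tested as log2(signal + 16), which understates changes of dim genes, with limma 3.58.1 in R 4.3.3 (8 residual degrees of freedom, 3.98 from the prior) over the 11 arrays. P-values were 2-sided and Benjamini-Hochberg adjusted over 18193 genes, and the procedure was tested on simulated data. The number of arrays limits precision. Background used olfactory receptor genes, since no detection calls were used here. The members, lists and tests were chosen with earlier results of these data known. Named were genes past the test, a set chosen by role in gut, the brightest gene of each subfamily above background, and partners past the test. Kcnj10, Kcnh2 and the other genes named as above background were chosen after their values were seen. Figures used matplotlib 3.10.9.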

Additional observations from a re-analysis of the deposited data

Results flagged for a closer look

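Among the 26 genes above background in a group, 3 of 52 sets of 4 arrays held 1 array far from the other 3, where chance gives about 1 in 20. Kcnd3 was 130.0 on 12 h replicate 4, above the other 3 arrays of that group. Kcnmb4 was 30.3 on 12 h replicate 3. Kcnq1ot1 was 1.5 on 3 h replicate 2.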

How the results depend on the processing

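Counts of called genes are small, so a change of 1 gene can move them by over 1.5 times. At 3 h against control the 3 calls became 1 at an adjusted p under 0.01 and 5 under 0.10, and lay between 1 (without control replicate 1 or 2) and 5 (without control replicate 3) when 1 array was left out. Under the other 11 alternatives the count was 2 to 4. At 12 h against control the 2 calls became 1 with an offset of 1 and 1 with the replicate block. They became 0 with the 2 compared groups alone, 0 without the 5 arrays high in pancreatic transcripts and 0 at an adjusted p under 0.01. Unadjusted limma p was then under 0.05 for 15, 7 and 19 of the 84 genes. The count was 4 at an adjusted p under 0.10 and between 0 and 4 when 1 array was left out, 0 being without control replicate 2 (15 genes at an unadjusted limma p under 0.05) and 4 without control replicate 3 or 12 h replicate 4. At 12 h against 3 h the 2 calls became 1 with an offset of 1, 1 with the replicate block and 1 at an adjusted p under 0.01. They became 4 after a filter on low values, which 16 of the 84 genes passed, 4 with a trended and robust variance prior and 5 at an adjusted p under 0.10. Without the 5 arrays the count was 0, with an unadjusted limma p under 0.05 for 5 genes, and 1 to 3 when 1 array was left out. Kcne4 at 3 h passed in all alternatives run. With the replicate block Kcnj8 passed at 12 h (log2 change 1.38, limma adjusted p = 0.0358), Kcnq1 did not (0.67, 0.0667), and neither Kcnq3 call held. The replicate numbers were not taken to pair the samples, since the labels state no pairing. Same-numbered arrays of different groups correlated in their deviations by -0.21 to 0.31, over 0.1 in 3 of 10 pairs. Arrays with different numbers correlated by -0.40 to 0.31. The limit for the pancreatic markers was set after seeing the data. Genes above background numbered 41 where 2 arrays of a group sufficed, 20 to 33 under the other levels and probe set rules, and 26 to 29 without 1 array. No call was reversed. The cause of these changes was not tested, except that leaving out arrays leaves fewer samples.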
